A study of Arabidopsis thaliana with 3 samples.

Results

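The 10 genes described here act in DNA methylation, its removal or silencing in Arabidopsis thaliana. The question was where sites recovered with the histone demethylase JMJ28 lie on them. They are the DNA methyltransferase genes MET1, CMT2, CMT3 and DRM2, the silencing genes DDM1 and MOM1, and the DNA glycosylase genes ROS1, DME, DML2 and DML3. They were chosen by name, by symbol or synonym in a gene table of the TAIR10.1 assembly, among 27444 nuclear protein-coding genes. DDM1, MOM1 and ROS1 stand in that table as CHR1, MOM and DML1. The name DRM2 also occurred there as a synonym of a dormancy gene, AT2G33830, which was left out. A chromatin immunoprecipitation (ChIP-seq) summit, the position of highest signal within a peak, was given to a gene when it lay inside it or within 1000 bp of either end. By this rule 18 of the 18368 nuclear summits belonged to the 10 genes.

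The ChIP used 14-day-old Col-0 seedlings, grown in long days at 22 °C, that express JMJ28 fused to 3xFLAG from the JMJ28 promoter (JMJ28pro::JMJ28:3xFLAG). There were 2 ChIP libraries and 1 input library, all of this genotype and age. Beyond Col-0, the labels do not say whether the plants that received the transgene were wild type or mutant. The number of lines is not given either. The authors deposited 1 list of summits, with a score for each, and no list per library. Untagged plants were not analysed here, and signal that does not depend on JMJ28 therefore cannot be told apart from its binding. The list gives no spread between replicates and its sequencing depth is unknown, so no value below has an error and no difference was tested. The score is the authors' own −log10 of a p-value or q-value. It ranks summits within this list and is not a level of occupancy.

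In plants, cytosine is methylated in the CG, CHG and CHH contexts, where H is any base but G. MET1 copies CG methylation after replication, CMT3 and CMT2 act in the CHG and CHH contexts on chromatin that carries methylated lysine 9 of histone H3 (H3K9), and DRM2 is guided by small RNAs. JMJ28 belongs to the family of JmjC proteins that remove methyl groups from H3K9, the mark that the chromomethylases CMT2 and CMT3 read. The glycosylases cut out methylated cytosine, which is then replaced through base excision repair.

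Of the 10 genes, 9 had a JMJ28 summit and 1, DML3, had none. The background was high: 65.4% of all protein-coding genes had one. The 10 genes are also long, with a median of 6587 bp against 2078 bp for all protein-coding genes, and long genes have summits more often. Among the 4208 genes whose length lies between that of the shortest member (DRM2, 3600 bp) and the longest (DME, 9422 bp), 81.1% had a summit. Shorter genes prevail in this range: 5411 genes were close to DRM2 in length and 300 to DME. Among genes close to each member in length, the share ran from 78.5% for DRM2 to 91.9% for MOM1. The count of 9 of 10 lies close to these shares and is no result about these genes. The other shares of genes of like length come from the range of 3600 to 9422 bp and were not matched more closely. A summit inside the gene itself was present at 7 of 10, against 47.7% of all genes and 66.4% of genes of like length. DDM1 and ROS1 were counted through a summit in the flank only.

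**Figure D1:**
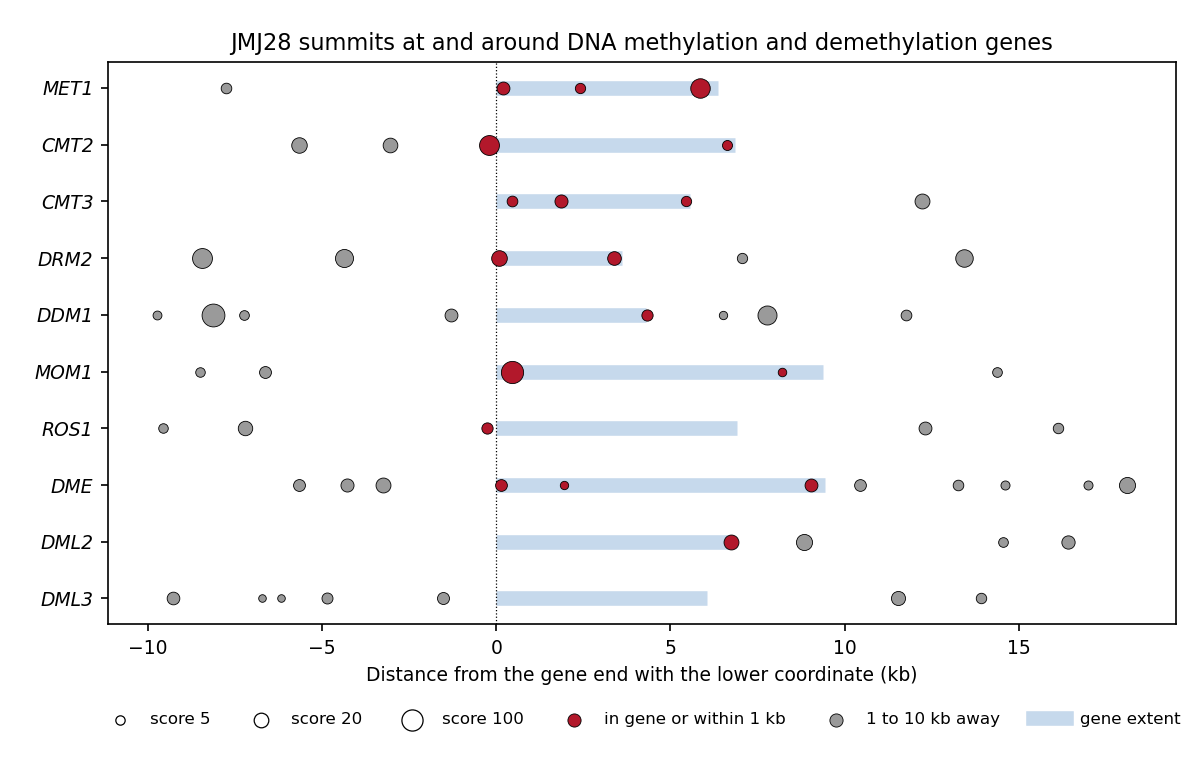
Map of the JMJ28 summits at the 10 genes, by distance in kb from the gene end with the lower coordinate; blue bars are gene extents, points are summits (red, inside or within 1000 bp; grey, further out to 10000 bp), and point area grows with the authors' score. Among the red points, MOM1 has the highest score, near its lower end, and the extents of DDM1, ROS1 and DML3 hold no summit.

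The scores ranged widely among the genes. The highest score of each gene, in falling order, was 129.9 at MOM1, 73.3 at CMT2, 67.0 at MET1, 25.9 at DRM2, 21.6 at DML2, 13.6 at CMT3 and 12.9 at DME, with 8.48 at both DDM1 and ROS1. Their median over the 9 genes was 21.6, beside 13.6 over all 17953 protein-coding genes with a summit and 14.6 over the 3414 of like length. MOM1, CMT2 and MET1 stood above the upper quartile of those genes of like length (29.6), and none of the 9 lay under their lower quartile (8.20). With no error per summit, the order of neighbours such as CMT2 and MET1, or CMT3 and DME, cannot be resolved. At or above the upper quartile of all nuclear summits (18.4) were 5 of the 10 genes, against 25.4% of all protein-coding genes and 34.2% of those of like length. At or above the nuclear median (9.07) were 7 of 10, against 43.8% and 57.7%. One of the 5, CMT2, owed its place to a summit that lies in a neighbouring gene.

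**Figure D2:**
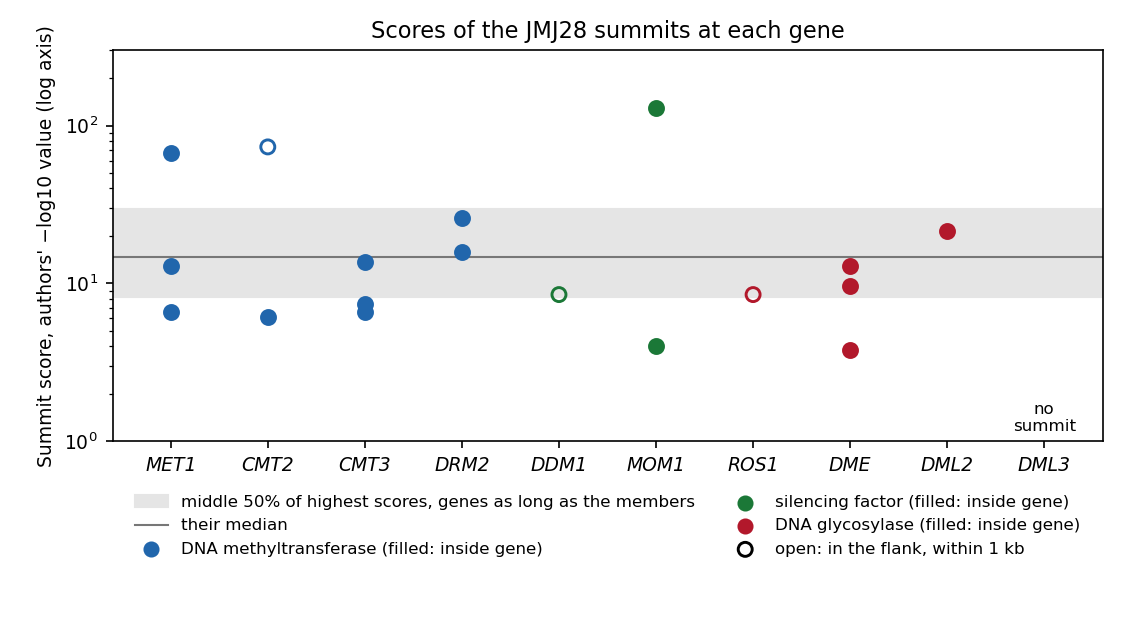
Score of every JMJ28 summit at the 10 genes (authors' −log10 value, log axis); filled points lie inside the gene, open points in the flank, and the grey band with its line gives the middle 50% (8.20 to 29.6) and the median (14.6) of the highest scores of genes of like length. The points of MOM1 (129.9), CMT2 (73.3) and MET1 (67.0) lie above the band.

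The DNA methyltransferase genes all had a summit, with 10 summits in total, 9 of them inside the gene. Over the whole list, 16203 of the 18368 nuclear summits lay inside a protein-coding gene. MET1 (AT5G49160, chromosome 5), the maintenance methyltransferase for CG sites, held 3. The strongest, at position 19937956 (score 67.0), lay 514 bp inside the upper end, the gene end with the higher coordinate. Its score equalled or exceeded that of 96.4% of nuclear summits. The neighbouring gene AT5G49170 was 584 bp from the same summit. The other MET1 summits were weaker, at position 19932316, 202 bp inside the lower end (12.9), and at position 19934523, 2409 bp inside the gene (6.58). Within 10000 bp outside MET1 there was only 1 further summit, with a score of 7.11.

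CMT3 (AT1G69770, chromosome 1), the chromomethylase best known for CHG sites, also held 3 summits inside the gene, all of modest score. They lay at position 26248561 (7.36), at position 26249985 (13.6) and at position 26253555 (6.58). The strongest was 1867 bp inside the gene, away from both ends, while the outer ones lay 443 bp and 132 bp inside them. No other annotated gene lay within 1000 bp of any of the 3, so they belong to CMT3 alone in this table.

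CMT2 (AT4G19020, chromosome 4), which acts mainly on CHH sites of heterochromatic transposons, had the second highest score among the 10 genes, but that score is shared. The summit at position 10414228 (73.3) lay 200 bp outside the lower end of CMT2 and inside the adjacent gene AT4G19010. The only summit inside CMT2, at position 10421057, scored 6.07, equal to or above 33.5% of nuclear summits. It was 208 bp inside the upper end, with the gene of the aquaporin-type channel NLM1 464 bp away. Beyond it the list held no summit for 19085 bp, up to position 10440142.

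DRM2 (AT5G14620, chromosome 5), the methyltransferase of the small-RNA pathway, had a summit near each end. At position 4715174 the score was 25.9, only 69 bp inside the lower end and 98 bp from the neighbour AT5G14610. At position 4718489 the score was 15.7, 215 bp inside the upper end and 505 bp from SK13, a shaggy-like protein kinase gene. DRM2 was the shortest of the 10 genes and lay among strong summits: 3 of the 4 summits further out, up to 10000 bp away, scored higher than its own, the highest 73.3.

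The silencing genes MOM1 and DDM1 stood at opposite ends of the range of scores. MOM1 (AT1G08060, chromosome 1) encodes a large protein that keeps transposons and repeats silent, largely without changing their DNA methylation. Its summit at position 2502169 scored 129.9 and ranked 159 among the 18368 nuclear summits. It lay 465 bp inside the lower end and 588 bp from the gene AT1G08050. A second MOM1 summit, at position 2509917, scored 3.99, near the low end of the list, and the 7748 bp between them held none. The 3 summits further out, up to 10000 bp away, scored 5.34 to 9.97, so the strong summit had no neighbour of comparable score.

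DDM1 (AT5G66750, chromosome 5) encodes the chromatin remodeller that lets methyltransferases reach heterochromatin, and no summit lay inside it. Its only summit, at position 26653235 (8.48), was 44 bp outside the upper end. A tRNA gene, AT5G66755, was 35 bp from that summit, and SDH1-1, a succinate dehydrogenase gene, was 372 bp from it. The surroundings of DDM1 were not poor in summits: 7 lay between 1000 and 10000 bp away, among them 1 of 151 in AT5G66720 and 1 of 59.6 in SDH1-1.

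The DNA glycosylase genes had 5 summits, 4 of them inside a gene, and their scores lay between 3.78 and 21.6. The highest scores per gene, 8.48 to 21.6 at the 3 glycosylase genes with a summit, overlapped with those of the methyltransferase genes, 13.6 to 73.3. The 8.48 (ROS1) and the 73.3 (CMT2) belong to summits that lie inside a neighbouring gene. Inside CMT2 itself the only summit scored 6.07. DME (AT5G04560, chromosome 5), known for demethylation in the central cell of the female gametophyte, had 3. They were at position 1309233 (9.67), at position 1311056 (3.78) and at position 1318127 (12.9). The outer ones lay 134 bp and 393 bp inside the gene ends, and the upper one was 947 bp from the sulfite reductase gene SIR. Between the upper 2 of these, 7071 bp of DME held no summit.

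ROS1 (AT2G36490, chromosome 2), the main demethylase of vegetative tissue, held no summit inside the gene over its 6901 bp. Its only summit, at position 15307647 (8.48), was 260 bp outside the lower end and inside the adjacent gene AT2G36480. The score was at or above that of 48.5% of nuclear summits. The next summit lay beyond the other end of the gene, at position 15320201, so that the 12554 bp between them held none.

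DML2 (AT3G10010, chromosome 3) had 1 summit, at position 3088461 (21.6), 89 bp inside its upper end. No other gene lay within 1000 bp of it. On the other side, the whole remaining gene and its flank were free of summits down to position 3069330, a distance of 19131 bp. Of all protein-coding genes, 77.9% touched a longest summit-free interval that was as short or shorter, and the median of these intervals was 8798 bp.

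DML3 (AT4G34060, chromosome 4) was the gene without a summit. Its nearest one, at position 16311828 (10.3), lay 1538 bp outside the gene, inside CCoAOMT1, a gene of lignin synthesis. The interval without summits that covers DML3 was 13058 bp long, a length that 65.6% of protein-coding genes do not exceed. The outlying summits that were counted, at ROS1 (260 bp), CMT2 (200 bp) and DDM1 (44 bp), lay well within the limit of 1000 bp, and a flank of 500 bp kept the same 18 summits.

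Most summits inside the 10 genes lay near a gene end. The background for this covers genes of all lengths, and short genes leave less room away from their ends. No share for genes of like length was computed, so the values below are not matched for length. Of the 15 inside, 10 (66.7%) were within 500 bp of an end, beside 74.5% of all 16203 summits inside protein-coding genes. The median distance of the 15 was 393 bp, beside 295 bp for all. The exceptions were in MET1 (514 and 2409 bp), CMT3 (1867 bp), MOM1 (1167 bp) and DME (1957 bp). CMT2, CMT3, DRM2 and DME had a summit within 500 bp of both ends, which makes 4 of 10 against 16.6% of all protein-coding genes and 23.8% of those of like length. At CMT2 one of the pair was the summit inside AT4G19010. MET1, with its upper summit 514 bp from the end, fell just outside this limit. Strand and exons were not used here, so a lower or upper end may be the transcription start or the transcript end.

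The number of summits per gene was as varied. MET1, CMT3 and DME had 3, CMT2, DRM2 and MOM1 had 2, and DDM1, ROS1 and DML2 had 1. With 2 or more at 6 of 10 genes, the count compares with 29.8% of all genes and 47.9% of genes of like length. For so few genes and without a test, this count is no result about them. The same holds for the other counts of the 10 genes given beside such shares. Of the 18 summits, 9 also lay within 1000 bp of another protein-coding gene, and for 2 of them, at CMT2 and ROS1, the nearest protein-coding gene was the neighbour. No share over all nuclear summits was computed for these counts, so they are not read as a trait of the 10 genes.

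Relatives and partners of the 10 genes gave a mixed picture. Of 53 further genes of DNA methylation and its pathways, in 9 lists, 46 were found in the gene table, and 37 of these (80.4%) had a summit. Of the 46, 24 were as long as the 10 genes, and 17 of these 24 (70.8%) had a summit, beside 81.1% of all genes of like length. Among the other 22, all shorter than 3600 bp, 20 had one (90.9%), beside 65.4% of protein-coding genes of any length. No share was computed for all genes that short, and the difference was not tested. The lists below mix both.

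Among the other methyltransferase genes, 4 of 6 had a summit. The MET1 relatives MET2 and MEE57 had none, in contrast to the 3 summits of MET1. Of the chromomethylase genes, CMT1 had 1 weak summit (3.38) inside the gene, below the highest of CMT3 (13.6) and CMT2 (73.3, in the flank). The only summit inside CMT2 scored 6.07. In the DRM family, DRM1 had 34.9 in its flank, DRM2 25.9 and DRM3 10.3 in its flank. DNMT2, whose product methylates tRNA, had 25.5.

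The VIM genes encode partners of MET1 that bind hemimethylated DNA. VIM1 (8.48), VIM3 (4.87) and VIM2 (3.99) each had 1 summit of low score, while VIM4, VIM5 and VIM6 had none. VIM2 and VIM4 are close copies, so reads may not be assigned to either with certainty. Of the H3K9 genes, SUVH5 (29.1) and KYP (11.2), methyltransferases whose mark the chromomethylases read, had a summit in the flank only. IBM1, the H3K9 demethylase that protects genes from CHG methylation, scored 3.38 inside the gene, and SUVH6 had none.

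Of the genes that act with the glycosylases, those found in the table had a summit in 2 of 2 cases for repair and 3 of 3 in the anti-silencing complex. The repair genes LIG1 (9.67, in the flank) and ARP (7.36), a DNA ligase and an apurinic endonuclease gene, had low scores. In the complex, which brings ROS1 to its targets, the histone acetyltransferase gene IDM1 scored 92.6 inside the gene, against 7.92 at MBD7 and 6.58 at IDM2, the latter in the flank. A separate list of methyl-CpG binding domain genes had one in 3 of 3 cases, with MBD6 (61.6) and MBD9 (7.92) in the flank and MBD5 (6.32) inside.

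Genes of the methyl donor supply had a summit in 5 of 5 cases. SAM1 (36.4, in the flank) makes S-adenosylmethionine, and SAHH1 (34.9) and SAHH2 (24.6) remove its by-product. Genes of RNA-directed DNA methylation had one in 9 of 12 cases. The polymerase V subunit gene NRPE1 (53.2), RDM1 (40.5) and the shared subunit gene NRPD2A (28.7, in the flank) were highest, and RDR2, AGO4 and CLSY1 had none. Other silencing factors had one in 5 of 5 cases, led by the histone deacetylase gene HDA6 (5357), which holds the highest score of the list, the H3K27 methyltransferase gene ATXR6 (82.4) and MORC6 (18.8, in the flank).

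**Figure D3:**
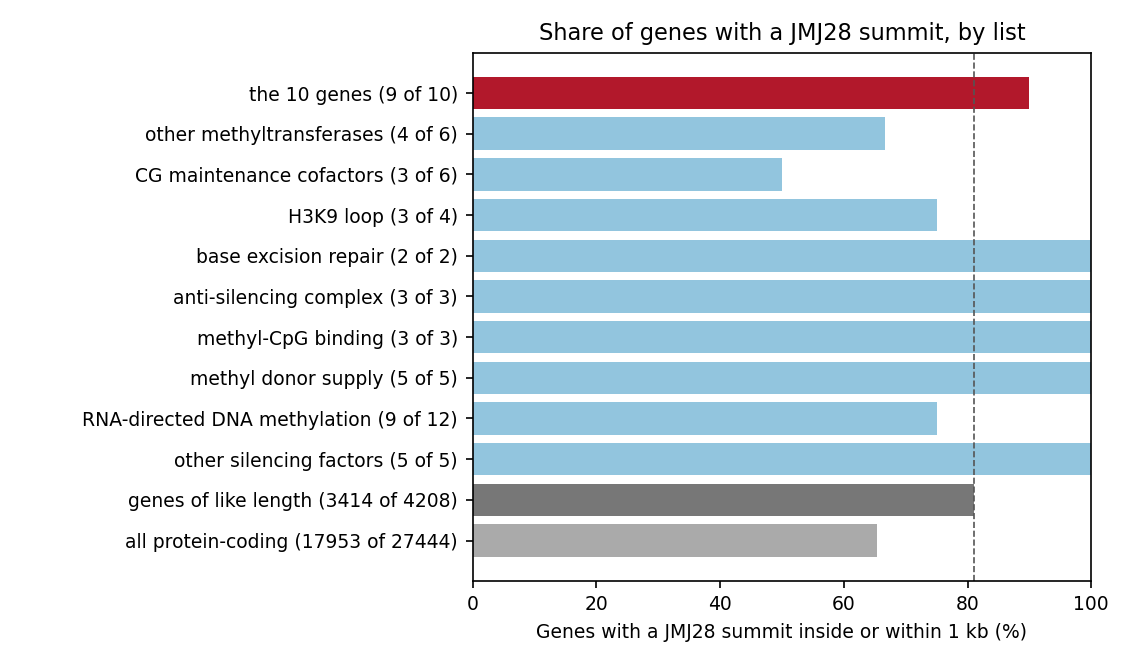
Percentage of genes with a JMJ28 summit inside or within 1000 bp, for the 10 genes (red), 9 related lists (blue) and the background (grey), with counts in brackets; the dashed line marks the 81.1% of genes of like length. The 10 genes stand at 9 of 10, the VIM cofactors at 3 of 6, and the lists at 100% hold 2 to 5 genes each. Of the 46 related genes, 22 are shorter than 3600 bp, so the line is not matched to the related lists.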

How the data were processed

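Per the submitters' processing notes, the tools were the aligner Bowtie2 and the peak caller MACS2, with the TAIR10 build. Not given in the sources used here are versions, the peak threshold, pooling of the ChIP libraries and the use of the input. The authors deposited 1 list of 18410 summits of 1 bp, with a score that has the layout of a MACS2 summit list, a −log10 of a p-value or q-value. Such a score grows with sequencing depth. Summits on the 5 nuclear chromosomes were kept (18368), and positions are counted from 1 on TAIR10.

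Genes came from the TAIR10.1 table of NCBI, used for names, lengths and neighbours. As a check of shared coordinates, 53.2% of summits lay 300 bp or less from an end of a protein-coding gene, and 22.1% to 27.4% after shifts of 1000 or 5000 bp either way. Strand, exons and genome sequence were not used here. The assignment of summits to genes was tested on simulated data. The 10 genes and all lists were chosen with earlier results of these data known, as was the comparison with genes of like length. Of 53 related entries, 7 are not analysed here: 6 had no gene of that symbol, and for 1 the symbol belongs to a different locus. Named were all 10 genes, the genes sharing their summits, and from each related list up to 3 with the highest scores, plus those without a summit where 3 or fewer lacked one. CMT1 was named in addition, after its value was seen. No test was made, since 1 list has no replicates. Alternatives were other flanks, the nearest gene only and higher scores. Scripts ran in Python 3.11.15 with pandas 2.3.3, numpy 2.4.6 and matplotlib 3.10.9.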

Additional observations from a re-analysis of the deposited data

How the results depend on the processing

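With other limits, the number of the 10 genes with a summit went from 7 (inside the gene only, where DDM1 and ROS1 dropped out) through 8 (nearest protein-coding gene only, without ROS1) and 9 (flank of 500 bp) to 10 (flank of 2000 bp, which added DML3). The share of all protein-coding genes went from 47.7% to 73.3% under the same settings. Among genes of like length it was 66.4% (inside the gene only), 68.9% (nearest gene only), 77.5% (500 bp) and 85.2% (2000 bp). Keeping only summits at or above the median score left 7 genes and 10 summits, against 43.8% of all genes and 57.7% of those of like length. At or above the upper quartile, 5 genes (MET1, CMT2, DRM2, MOM1 and DML2) and 5 summits were left. The shares were 25.4% of all genes and 34.2% of those of like length. By construction these thresholds use fewer summits. Counting summits within 300 bp of each other once left 18. Of 33 highest scores per gene recomputed with another flank or the nearest gene only, 30 did not change. CMT2 fell from 73.3 to 6.07 inside the gene and with the nearest gene only, and DDM1 went from 8.48 to 12.9 with a flank of 2000 bp. Distances to the transcription start were not run, as strand was not used here. No paired analysis was possible because the data are 1 list without values per library. Depth is unknown, so a missing summit does not show that JMJ28 is absent.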
